A study of Homo sapiens with 2 samples.

Results

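Ubiquitin-conjugating enzymes, or E2s, stand in the middle of the ubiquitin cascade. An E1 enzyme activates ubiquitin and passes it to the active-site cysteine of an E2, and the loaded E2 then works with an E3 ligase that chooses the substrate. The E2 largely sets the kind of chain that is built. Chains through lysine-48 mark proteins for the proteasome, chains through lysine-63 serve in signalling and DNA repair, and a few E2s carry SUMO, NEDD8 or ISG15 in place of ubiquitin.

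The C-to-U edit sites of 31 UBE2 genes were examined, among 12178 loci with a site listed in either of 2 libraries. The members were the loci of the isoform annotation whose exons overlapped a GENCODE protein-coding gene with a symbol starting in UBE2 more than any other such gene on the same strand. GENCODE release 44 holds 37 such genes on hg38. The other 6, UBE2F, UBE2F-SCLY, UBE2L5, UBE2NL, UBE2QL1 and UBE2U, received no locus of their own.

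Both libraries were PacBio long-read libraries of HEK293T, a human embryonic kidney cell line that the labels also write as HEK293XT. In the RBFOX2 library, methanol-fixed cells received an antibody against the RNA-binding protein RBFOX2, and a purified fusion of the cytidine deaminase APOBEC1 with an antibody-binding nanobody then converted cytosines in nearby RNA to uracil. In the enzyme-only library the same fusion was added without the antibody, which measured the background of the enzyme. RBFOX2 is a splicing and mRNA regulator known to bind UGCAUG, and the comparison asked where editing went beyond that background. Each group held 1 library, so no difference below has a replicate check or a p-value. The labels give the libraries different replicate numbers, so replicate and treatment cannot be told apart. Every comparison describes these 2 libraries, and the 95% exact intervals (Clopper-Pearson) cover counting error only, since sites of a gene can lie on the same molecules.

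The RBFOX2 library listed 121930 sites in 10199 genes and the enzyme-only library 103684 sites in 10182 genes, with 2431345 and 2233600 reads summed over those genes. Sites listed in both libraries were set aside, which left 109357 and 91111 unshared sites, and site counts were scaled by these totals. Neuronal intermediate filament genes that this line is known to express were listed in both libraries (NEFL, NEFM and INA, with 86 to 281 reads), as was RBFOX2 with 247 and 221 reads. VIM, another gene of this line, had 1367 reads in RBFOX2 and was not listed in enzyme-only. PAX2 and LHX1 had also been chosen as markers of this line. PAX2 was listed in enzyme-only alone, with 3 reads, and LHX1 in neither library. None of the 7 markers of differentiated kidney was listed in either. A gene is listed only with a site, so absence from a table is not absence of reads.

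Sequences around UGCAUG in 3'UTRs are shown because RBFOX2 is known to bind this hexamer, although few of the E2 sites lay near it. The windows below are hg38, read 5′ to 3′ on the RNA strand. Capitals mark the UGCAUG hexamer and each further cytosine listed as edited in the RBFOX2 library.
UBE2B, chr5:134390518-134390547, plus strand: uguaCuuuuuauUGCAUGgugugaaCuaag
UBE2D1, chr10:58369639-58369668, plus strand: CaaaacucuaaaauuuUGCAUGaaaauuaC
UBE2D3, chr4:102796838-102796867, minus strand: guauuuuaUGCAUGucaauaaaggaaugaC
UBE2E2, chr3:23590310-23590339, plus strand: CugaagucuuuauuggugggUGCAUGcuac
UBE2K, chr4:39778869-39778898, plus strand: gaauuuacuUGCAUGcuuguacuugacuuC
UBE2A, chrX:119584150-119584179, plus strand: CcugaguuauugcUGCAUGcuuuaauuucu
In UBE2B the cytosine inside the hexamer was itself listed, with 1 converted read. No cytosine of these 6 windows was listed in the enzyme-only library. Each window was placed around its hexamer to hold as many RBFOX2 sites as possible, so this absence is no comparison. UBE2E2 was not listed in that library, and the enzyme-only sites of UBE2A and UBE2D3 given below lay outside their windows.

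UBE2B, a RAD6-type E2 that acts with RAD18 in DNA damage tolerance and with RNF20 and RNF40 on histone H2B, showed the densest group. The RBFOX2 library had 9 unshared sites within 50 nt of its 3'UTR hexamer. From 5′ to 3′ they lay at −50, −36, −21, −8, 0, 8, 22, 40 and 41 nt from the hexamer, with 1, 2, 3, 3, 1, 4, 3, 1 and 1 converted reads of the 151 reads of the gene. The enzyme-only library listed none of them among 85 reads, and all 3 of its unshared UBE2B sites were in the coding sequence. The sites with 3 or 4 converted reads lay within 22 nt of the hexamer on both sides.

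The other members with such sites had 1 to 4 each. UBE2D1, a promiscuous E2 that works with many RING ligases, had 4 RBFOX2 sites at −16, 8, 26 and 31 nt, with 1, 1, 2 and 1 converted reads of 124. The enzyme-only library also had 124 UBE2D1 reads and listed no unshared site within 50 nt. UBE2D3, a close relative of UBE2D1, had 2 RBFOX2 sites at 16 and 28 nt with 4 and 7 converted reads of 1073, and an enzyme-only site at 31 nt with 3 of 967. The 2 libraries therefore overlapped in position in UBE2D3, at different cytosines.

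UBE2E2, another E2 of the UBE2D type, had RBFOX2 sites at −20 and 23 nt with 1 converted read each of 52. It was not listed in the enzyme-only library, which gives no read count for it there and no comparison. UBE2K, which builds lysine-48 chains, had 3'UTR sites at −39 and 15 nt with 1 converted read each of 251. A further site lay in the coding sequence, 50 nt from a hexamer that no isoform model held in an exon. UBE2M, the NEDD8 E2, had 1 site at −27 nt from a hexamer that ran across the end of the exon model. UBE2W, which attaches ubiquitin to protein N-termini, had 1 site at 8 nt. UBE2A, the twin of UBE2B, was the exception in direction, with 1 RBFOX2 site at −13 nt and 2 enzyme-only sites at 22 and 32 nt, all with 1 converted read.

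**Figure D1:**
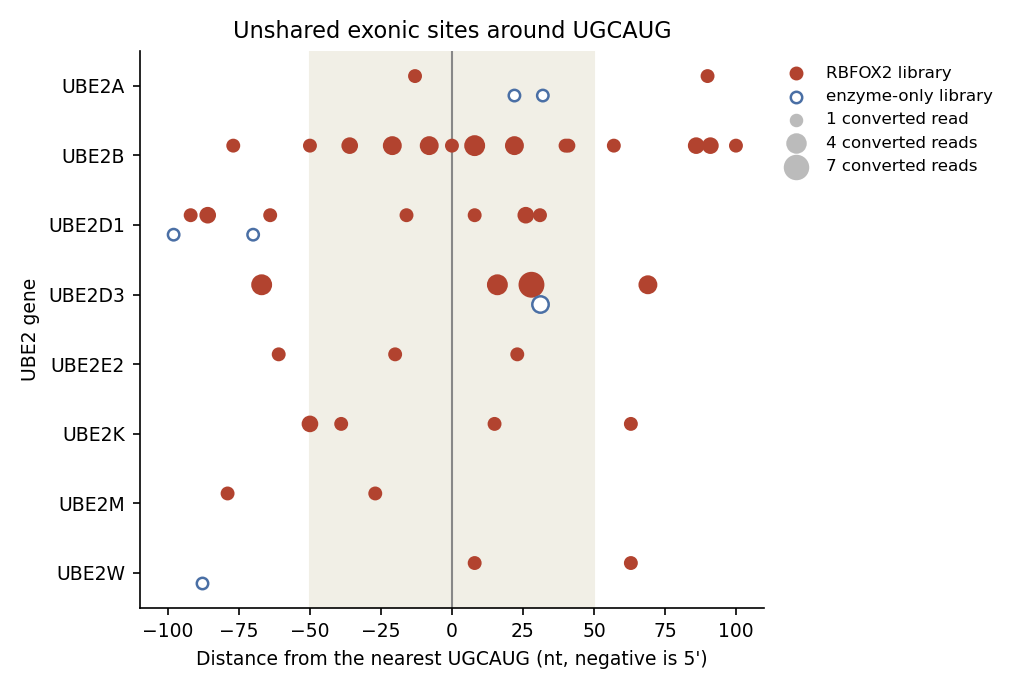
Unshared exonic sites within 100 nt of the nearest UGCAUG on the RNA strand (x axis, nt, negative is 5′; 0 is inside the hexamer) in the 8 UBE2 genes with a site in the shaded 50-nt window. Filled points are RBFOX2 sites, open points enzyme-only sites, and area grows with the converted reads. UBE2B holds 9 filled points and no open point in the window, and UBE2A, UBE2D3 and UBE2W are the genes with an open point in the plot beside UBE2D1.

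Counted over the family, 23 of 521 unshared exonic RBFOX2 sites (4.41%, 2.82 to 6.55) lay within 50 nt of UGCAUG, against 3 of 290 enzyme-only sites (1.03%, 0.214 to 2.99). The exonic cytosines of the same genes, weighted by their sites, would give 2.64% and 2.03%. The 2 intervals overlapped slightly, and the RBFOX2 interval began above its cytosine share. Over all loci the shares were 3.96% and 2.32%, with cytosine shares of 2.59% and 2.44%, and the RBFOX2 interval of the E2 genes held the share of all loci. UBE2B supplied 9 of the 23 sites. Without it the RBFOX2 share was 2.90% (1.60 to 4.83), 14 of 482 sites.

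The share was 3.90% among RBFOX2 sites with 1 converted read and 5.56% among those with 2 or more, with overlapping intervals. For the shorter GCAUG, which includes every UGCAUG, the shares were 10.7% in RBFOX2 and 6.90% in enzyme-only, against 8.33% and 7.19% of the genes' cytosines. The hexamer was searched on the RNA strand only, in exons and introns. A site near it is a position, and its part in RBFOX2 binding was not tested.

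The 31 members held 608 RBFOX2 sites and 378 enzyme-only sites, of which 85 were shared. The unshared sites numbered 523 and 293. Scaled by the library totals, the log2 ratio of RBFOX2 to enzyme-only was 0.57 (0.36 to 0.78), and scaled by the 13173 and 11696 reads of the E2 genes it was 0.66 (0.46 to 0.88). Without UBE2B, whose omission lowered it the most of any single member, the first value was 0.47. The direction turned when at least 2 converted reads were required, to −0.28 (−0.64 to 0.08) from 163 and 109 sites. That value, whose interval held 0, was scaled by the sites with as much support over all loci, 15650 and 8607. Of the sites left, 102 and 97 were of the 9 members with at least 500 reads in both libraries, which lost none. The 19 members under 500 reads in both kept 61 in RBFOX2 and 11 in enzyme-only.

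Of the 17 members with at least 20 unshared sites over both libraries, 6 had over 2-fold more in RBFOX2 (log2 ratio above 1) and 1 had over 2-fold fewer. Among all 3604 loci with as many sites, 16.8% were over 2-fold higher and 14.6% over 2-fold lower. The intervals of the same 6 members lay above 0 and that of 1 below it, where the shares over all loci were 15.2% and 14.5%. The median log2 ratio was 0.35 in the members and 0.08 over all loci, and 14 of the 17 were above 0, where 53.0% of all loci were.

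The 6 were UBE2B, UBE2K, UBE2V2, UBE2J2, UBE2W and UBE2A. UBE2B had 39 RBFOX2 and 3 enzyme-only sites, a log2 ratio of 3.23 (1.78 to 5.78). Its reads also differed the most among the members, 151 against 85, and scaled by those reads the ratio was 2.67 (1.22 to 5.21). UBE2J2, an E2 anchored in the endoplasmic reticulum that serves in the degradation of its proteins, had 52 against 13 sites with 339 and 283 reads, a log2 ratio of 1.70 (0.84 to 2.74). None of its RBFOX2 sites lay within 50 nt of UGCAUG, and its isoform exons held no copy of it.

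UBE2K had 22 against 4 sites with 251 and 213 reads, a log2 ratio of 2.06 (0.64 to 4.19). UBE2V2, a catalytically inactive E2 variant that pairs with UBE2N for lysine-63 chains, had 27 against 6 sites with 458 and 376 reads, a ratio of 1.82 (0.60 to 3.47). UBE2W had 22 against 6 with 117 and 105 reads, 1.53 (0.26 to 3.20). UBE2A had 30 against 12 with 260 and 244 reads, 1.02 (0.05 to 2.16), and was the one nearest to the limit of 2-fold. Its ratio was 0.94 (−0.03 to 2.08) at a common read minimum, 0.61 (−0.16 to 1.45) with shared sites kept and 0.99 with a pseudocount of 1, so it passed the limit by the main count and per read but under none of these 3. All 6 had under 500 reads in both libraries, and in 3 of them, UBE2B, UBE2K and UBE2W, the sites near UGCAUG came from RBFOX2 alone.

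The deposited sites all had an edit fraction, converted reads over gene reads, above 0.002, so the converted reads that a site needed stepped up with the reads of its gene. Where sites had to pass 1 common minimum, 5 of the 15 members that still had 20 sites were over 2-fold higher in RBFOX2, UBE2A no longer among them, and 0 were over 2-fold lower. UBE2D3, with 1073 and 967 reads, needed 3 converted reads in RBFOX2 and 2 in enzyme-only. Its 14 and 14 sites gave −0.26 (−1.44 to 0.92), and 14 and 5 sites at the common minimum gave 1.05 (−0.42 to 2.97). Over all loci listed in both libraries the minimum differed for 272 of 8203. Ratios at the common minimum were scaled by the unshared sites it left over all loci, 109194 and 85882. With the common minimum throughout, the log2 ratio of all E2 sites was 0.67 (0.45 to 0.89).

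**Figure D2:**
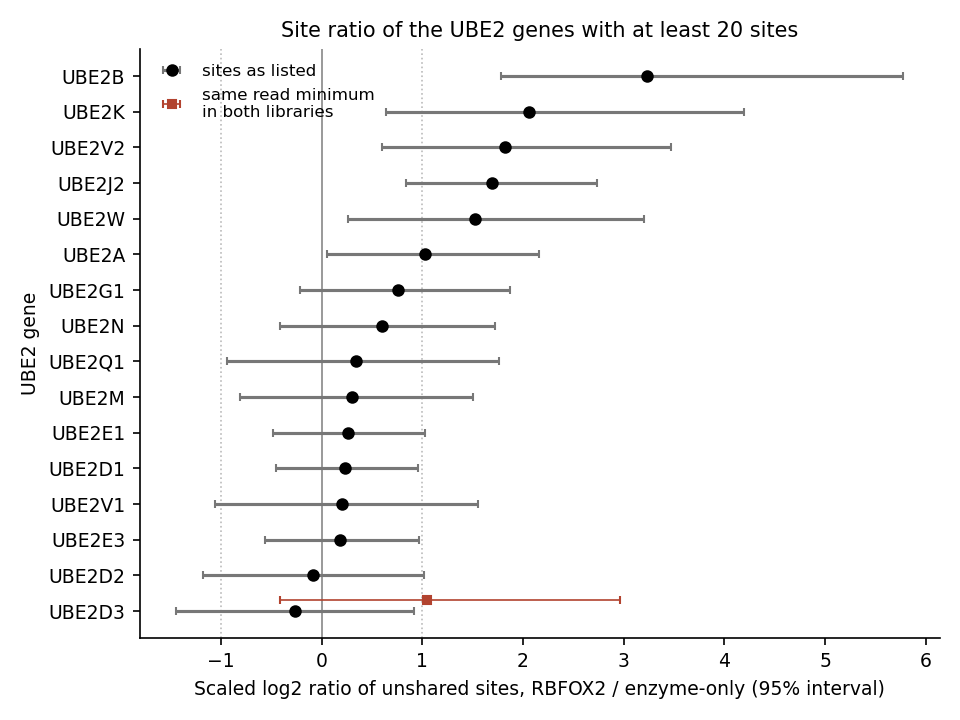
Log2 ratio of unshared sites, RBFOX2 over enzyme-only, scaled by library totals (x axis), for 16 UBE2 genes with at least 20 sites (y axis), with 95% exact intervals. Dotted lines are the 2-fold limits, and the red square shows UBE2D3 at the common read minimum, where it moves from −0.26 to 1.05.

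The remaining 10 members with at least 20 sites had intervals that held 0. UBE2G1, which builds lysine-48 chains in protein degradation at the endoplasmic reticulum, had 27 against 13 sites, 0.76 (−0.21 to 1.87). UBE2N, the catalytic partner of UBE2V2, had 24 against 13, 0.60 (−0.41 to 1.72). UBE2D1 (44 and 31 sites), UBE2E1 (39 and 27), UBE2E3 (37 and 27), UBE2M (18 and 12), UBE2D2 (17 and 15), UBE2Q1 (14 and 9) and UBE2V1 (14 and 10) lay between −0.09 and 0.35. UBE2D2 and UBE2D3 differ little in coding sequence and several E2s have processed pseudogenes, so reads shared between copies could not be told apart here. The locus of UBE2V1 also overlapped the read-through gene PEDS1-UBE2V1.

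Per 1000 exonic cytosines, the scale on which genes of different length can be set side by side, the densest members in RBFOX2 were UBE2D1 with 95.03 unshared sites and UBE2E1 with 79.3. Their enzyme-only densities were 67.0 and 52.8, also the highest of the family. UBE2A (58.7 and 23.5), UBE2B (56.7 and 4.36) and UBE2E3 (55.4 and 40.4) followed in RBFOX2. On this scale, which leaves out depth, UBE2B was near UBE2A and UBE2E3 in RBFOX2 and below both in enzyme-only. Its reads were 151 and 85, against 260 and 244 in UBE2A and 326 and 267 in UBE2E3. Per 100 reads of the gene, UBE2B had 25.8 unshared sites in RBFOX2 and 3.53 in enzyme-only. UBE2A had 11.5 and 4.92, and UBE2E3 had 11.3 and 10.1. Per read UBE2B was thus above both in RBFOX2 and nearer to UBE2A in enzyme-only.

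The other 14 members had under 20 unshared sites. UBE2T, the E2 of the Fanconi anaemia pathway, had 14 against 4 with 565 and 506 reads, a log2 ratio of 1.42 (−0.13 to 3.60). UBE2C, which starts chains for the anaphase-promoting complex, had 8 against 10 with 698 and 699 reads. UBE2S, which extends those chains, had the most reads of the family, 2273 and 2204, and no unshared site. At that depth a site needed at least 5 converted reads to be listed. UBE2J1, UBE2D4, UBE2R2, UBE2O, UBE2G2, UBE2Z, UBE2L3 and UBE2L6 had 1 to 11 RBFOX2 and 1 to 6 enzyme-only sites. UBE2E2 (11 sites) and UBE2H (1 site) were listed in RBFOX2 alone, and UBE2Q2 (10 sites, 99 reads) in enzyme-only alone.

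**Figure D3:**
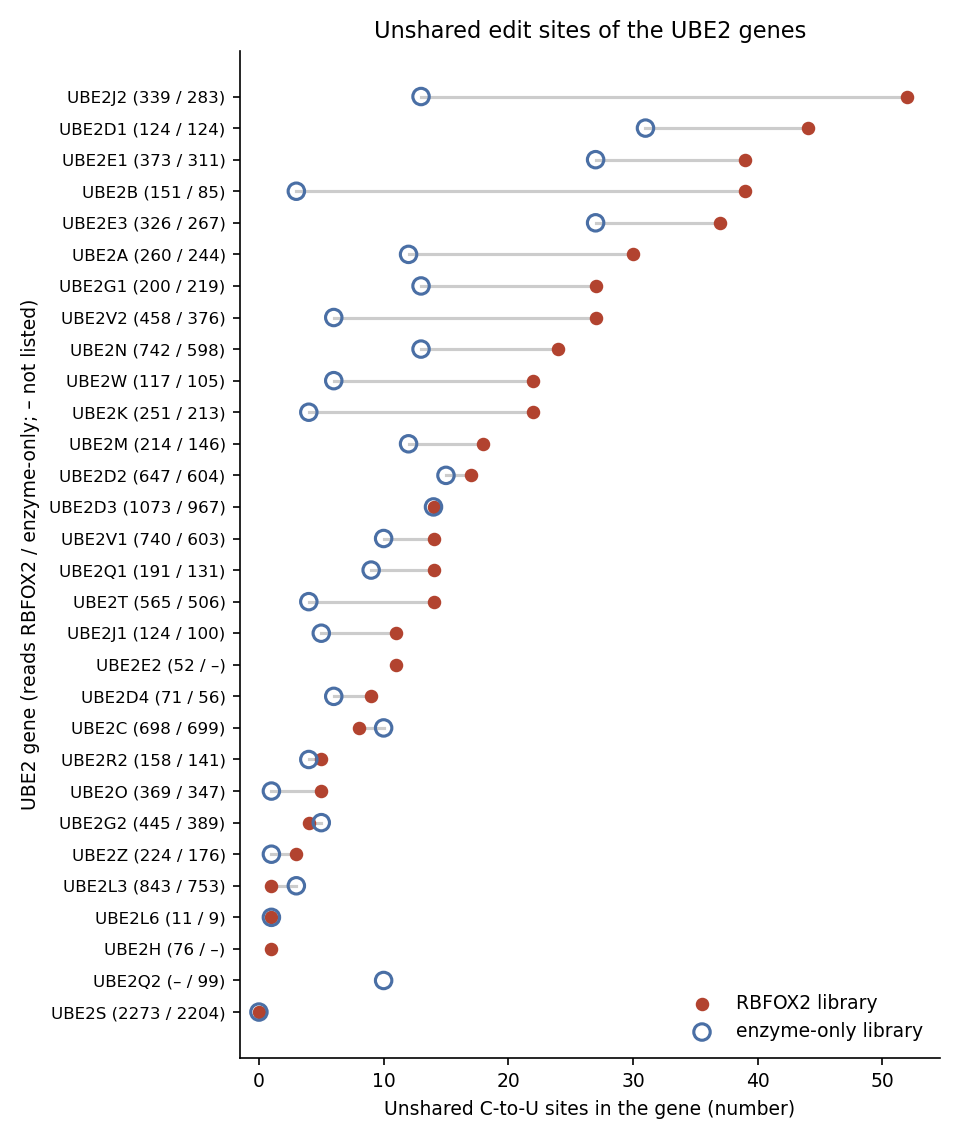
Unshared sites (x axis, number) of 30 UBE2 genes (y axis), filled for RBFOX2 and ringed for enzyme-only, with the gene's reads in the 2 libraries in brackets and a dash where it was not listed. UBE2J2 and UBE2B show the widest gaps toward RBFOX2, 52 against 13 and 39 against 3.

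The members differed by depth. The 9 with at least 500 reads in both libraries had 102 and 97 sites, a log2 ratio of −0.19 (−0.61 to 0.23), and the 19 with fewer had 409 and 186, a ratio of 0.87 (0.62 to 1.13). Over all nuclear loci the order was the other way, 0.49 at 500 reads or more and 0.05 below. With the common minimum the 9 members had 102 and 63 sites, 0.34 (−0.12 to 0.83). No member had 500 reads in one library and fewer in the other. The ratio of gene reads, RBFOX2 over enzyme-only, had a median of 1.16 over 28 members and was above 1 in 25 of them, against 1.10 over all nuclear loci. The part of depth in the members' ratios was not tested.

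By role, the RAD6-type pair UBE2A and UBE2B had 69 against 15 sites, a log2 ratio of 1.90 (1.12 to 2.85). The 6 E2s of lysine-48 chains and degradation at the endoplasmic reticulum (UBE2G1, UBE2G2, UBE2J1, UBE2J2, UBE2K, UBE2R2) had 121 against 44, 1.19 (0.69 to 1.73). The lysine-63 group of UBE2N, UBE2V1 and UBE2V2 had 65 against 29, 0.89 (0.25 to 1.59). The 8 of the UbcH5 type (UBE2D1 to UBE2D4, UBE2E1 to UBE2E3 and UBE2W) had 193 against 126, 0.35 (0.02 to 0.69). In each of these 4 groups the interval lay above 0, and in the UbcH5 type it barely did. Single members supplied much of the RBFOX2 sums, UBE2B 39 of 69, UBE2J2 52 of 121 and UBE2V2 27 of 65. In the same groups the intervals of UBE2G1, UBE2N and UBE2V1 held 0, and UBE2G2 had 4 against 5 sites. The UbcH5 sum included UBE2E2, with 11 sites and listed in RBFOX2 alone. It also included UBE2W, the E2 of protein N-termini, with 22 against 6. No group interval was computed without any of these members.

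The cell cycle and DNA repair group of UBE2C, UBE2S and UBE2T had 22 against 14, 0.37 (−0.64 to 1.47). The large or divergent E2s UBE2O, UBE2Q1, UBE2Q2 and UBE2Z had 22 against 21, −0.20 (−1.13 to 0.74). Of those enzyme-only sites, 10 were of UBE2Q2, which was not listed in RBFOX2. UBE2H, UBE2L3 and UBE2L6 had 3 against 4.

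Other genes of the cascade gave a context. Of 8 genes of E1 enzymes 7 were listed, with 146 against 47 sites, a log2 ratio of 1.36 (0.89 to 1.88). Of the 5 with at least 20 sites, 4 were over 2-fold higher in RBFOX2. Among these were UBA6 (22 and 1 sites), which loads ubiquitin, UBA2 (21 and 6), a subunit of the SUMO E1, and UBA3 (38 and 15), a subunit of the NEDD8 E1. E2 and E2-like genes with another name had 149 against 133 sites, −0.10 (−0.45 to 0.25), and of 5 with at least 20 sites 0 were over 2-fold higher and 1 lower, TSG101 with 18 and 31 sites, −1.03 (−1.97 to −0.16). The genes of ubiquitin and its relatives had 95 against 47, 0.74 (0.23 to 1.29), with 2 of 4 higher and 0 lower. The E3 partners had 542 against 504, −0.16 (−0.34 to 0.02), and of 22 with at least 20 sites 6 were higher and 7 lower. The median log2 ratio of those 22 was 0.34, opposite in sign to the sum. These sums held genes listed in 1 library alone. Among them were NAE1 (9 sites) and RNF168 (10 sites) in RBFOX2, and RNF40 (43 sites) and UBE3C (31 sites) in enzyme-only. RNF40 and UBE3C counted among the 7 lower. Over all loci, 16.8% were over 2-fold higher and 14.6% over 2-fold lower.

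Along the mRNA, 59.4% (55.0 to 63.6) of the E2 sites in RBFOX2 lay in 3'UTRs, against 47.9% (42.1 to 53.8) in enzyme-only. The cytosines of the same genes gave 40.6% and 38.0%. Over all loci 42.3% and 36.1% of sites lay there, so the E2 genes stood above them in both libraries, as did their cytosine shares, 28.8% and 28.0% over all loci. Coding sequence held 36.8% and 42.5% of the E2 sites, where the cytosines of the same genes gave 23.9% and 22.4%. The 5'UTRs held 3.45% and 7.88%, where the cytosines gave 18.1% and 20.9%. Coding and 3'UTR shares were thus both above their cytosine shares and 5'UTR shares below. Observed over cytosine share was 1.54 and 1.90 for coding sequence and 1.46 and 1.26 for the 3'UTR. The directions were the same over all loci. Where coding and 3'UTR annotation overlapped, coding was counted first. With the 3'UTR counted first its shares were 74.1% and 63.4%.

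APOBEC1 is known to prefer a cytosine that follows A or U. In the E2 genes the base directly 5′ was A or U at 81.6% (78.1 to 84.9) of the sites in RBFOX2 and at 75.1% (69.7 to 79.9) in enzyme-only, where 46.4% and 44.6% of the genes' cytosines do. All loci had 71.7% and 63.9%. At least 2 converted reads supported 31.2% (27.2 to 35.3) and 37.2% (31.7 to 43.0) of the E2 sites, against 14.3% and 9.45% over all loci. In the 19 members under 500 reads, where single conversions pass the fraction limit, the shares were 14.9% (11.6 to 18.7) in RBFOX2 and 5.91% (2.99 to 10.3) in enzyme-only, against 7.17% and 4.35% over all nuclear loci of that depth.

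**Figure D4:**
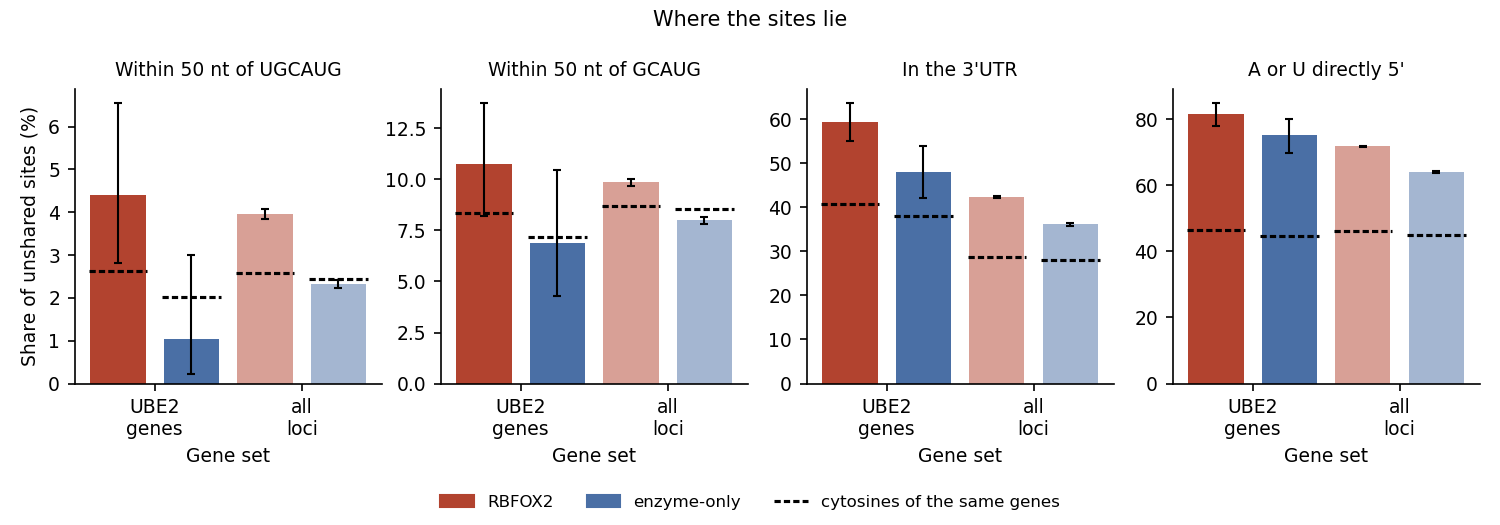
Share of unshared sites (y axis, %) within 50 nt of UGCAUG, within 50 nt of GCAUG, in the 3'UTR and after A or U, for the UBE2 genes and for all loci, with 95% exact intervals. Red bars are RBFOX2, blue bars enzyme-only, and dashed marks are the share of exonic cytosines of the same genes. For UGCAUG the UBE2 bars stand at 4.41% and 1.03%, above and below their marks.

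Sites with at least 5 converted reads in both libraries are shown for 3 members in 21-base windows of hg38 on the RNA strand, with those cytosines in capitals, because both libraries share them.
UBE2O, chr17:76390635-76390655, minus strand: ccuugcugccCcuucucaggu
UBE2S, chr19:55401630-55401650, minus strand: cagagauccaCgggggcgccg
UBE2T, chr1:202331732-202331752, minus strand: uauuugaugaCauaauuuuug
The 3'UTR site of UBE2O, a large E2 that also acts as its own E3, had 22 of 369 converted reads in RBFOX2 (5.96%) and 21 of 347 in enzyme-only (6.05%). It followed a C, unlike those of UBE2S and UBE2T. The UBE2S site, in the coding sequence and the only one listed for that gene, had 14 of 2273 and 14 of 2204, or 0.616% and 0.635%. The 3'UTR site of UBE2T had 9 of 565 and 6 of 506. Whether such a site is editing or a base that differs in these cells was not tested.

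The 12869 loci with isoform models allowed the same counts per isoform. The share of an isoform's exonic cytosines that held an unshared site, editsC, was computed for 379 isoforms of 30 members. Its median was 3.98% in RBFOX2 and 2.69% in enzyme-only, against 2.07% and 1.67% over all 108321 isoforms with a site. RBFOX2 was higher in 261 of the 379 and lower in 90. The same count over all isoforms is not given here, so this split is not particular to the E2 isoforms. It was not scaled for the 109357 and 91111 unshared sites of the libraries, and the medians over all isoforms were also higher in RBFOX2. Isoforms of a gene share exons and sites, so they are not separate measurements.

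A line fitted over all isoforms had a slope of 0.763, and 80 isoforms of 10 members lay more than 1.5 SD above it, where 6.49% of all isoforms did. More than 1.5 SD below it lay 7 isoforms, where 2.44% of all isoforms did, and 0 at the common minimum. UBE2J2 had 22 of its 27 isoforms above, UBE2V2 13 of 14, UBE2E1 11 of 11, UBE2B 10 of 11, UBE2T 8 of 17 and UBE2E3 5 of 10. UBE2D1 and UBE2K had 4 each, UBE2G1 had 2 and UBE2D2 had 1. The limit is a fixed distance in editsC, so isoforms dense in both libraries can pass it at a small ratio. UBE2E1, UBE2D1 and UBE2E3 passed it with scaled log2 ratios of sites of 0.26, 0.24 and 0.18. Their intervals held 0, as did those of UBE2T, UBE2G1 and UBE2D2. The isoforms of UBE2B spread the most, from 3.64% to 35.3% in RBFOX2, and from 0% to 2.07% in enzyme-only, so its 2 ranges did not overlap. Those of UBE2J2 ran from 5.27% to 11.6% and from 1.36% to 4.17%, also without overlap.

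**Figure D5:**
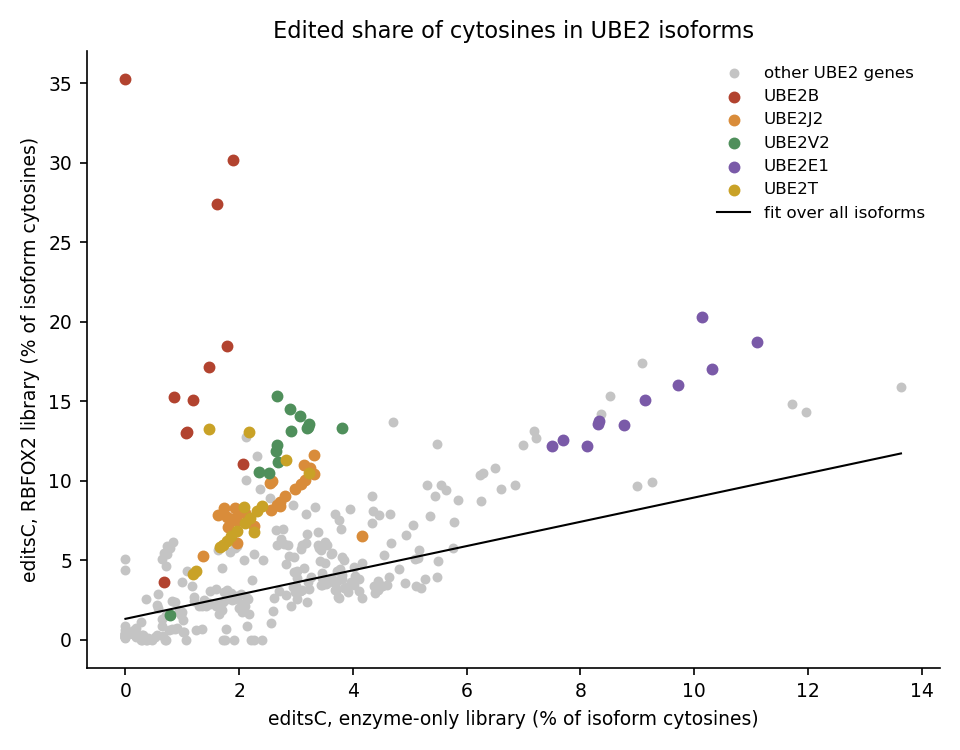
editsC, the percent of an isoform's exonic cytosines with an unshared site, in enzyme-only (x axis) and RBFOX2 (y axis), for 353 isoforms of 29 UBE2 genes, 1 point each. The line is the fit over all isoforms. UBE2B isoforms reach 35.3% at no more than 2.07% in enzyme-only.

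A C-to-U change in coding sequence can alter the protein that the read encodes. On 1 coding transcript per gene, the 186 coding RBFOX2 sites would give 10 stop codons, 97 missense and 79 synonymous changes, and the 123 enzyme-only sites 9, 60 and 54. As shares, stops were 5.38% (2.61 to 9.66) and 7.32% (3.40 to 13.4), and missense changes 52.2% (44.7 to 59.5) and 48.8% (39.7 to 58.0). Of the coding cytosines of these genes, 6.27% and 51.5% would give a stop or a missense change, which both libraries' intervals included.

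The catalytic core of a typical E2 holds a His-Pro-Asn motif a few residues before the active-site cysteine. It was found with that cysteine in 22 members. Its codons held 3 RBFOX2 sites and 4 enzyme-only sites, and the cysteine codon held 0 in both. Missense changes there were H78Y in UBE2B and P76S in UBE2D1 in RBFOX2, and P79S in UBE2B and H121Y in UBE2E1 in enzyme-only, each with 1 converted read. Residues are counted from 1 at the start methionine. The changes are in RNA converted after fixation and describe no protein.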

How the data were processed

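The deposited tables gave 1 line per edited cytosine, with 2 counts, converted reads at the site and reads of its gene, the fraction of one over the other, and a confidence score, which was not used here. Per the methods, the authors aligned circular consensus reads to hg38 with pbmm2 and called C-to-U changes with their own code. The library kit and the isoform tool named there differ from the labels and from the identifiers in the deposited annotation, whose versions are not given in the sources used here. The deposited isoform annotation held 119827 models, given as positions with no expression values. All 213041 distinct positions were cytosines on their listed strand. The deposited fraction exceeded 0.002 at every site, so a gene with 500 or more reads has no site with 1 converted read.

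From these files, loci were assigned to genes with bedtools 2.31.1, and sequences were read from hg38 with pysam 0.24.0 (python 3.11.15, numpy 2.4.6, pandas 2.3.3, scipy 1.17.1). Ratios used a pseudocount of 0.5 and totals of unshared sites. Alternatives that changed which sites counted used the totals of the sites kept over all loci. Intervals came from the split of a gene's sites between the 2 libraries at a level of 95%. Named members had at least 20 unshared sites, a site within 50 nt of UGCAUG or a site with at least 5 converted reads, which gave 21. Others are given by count, and a few items are not reported here. The members and lists were chosen with earlier results of these data known. The helper functions were tested on simulated data. The tables of reads have no molecular identifiers, so intervals and listing limits cover counting error only. Alternatives covered the listing minimum, read support, windows, shared sites, scaling, transcript choice and single members.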

Additional observations from a re-analysis of the deposited data

Results flagged for a closer look

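The exons of UBE2F, an E2 of NEDD8, held sites that the comparisons above did not use, because they lie in a locus whose exons overlapped SCLY more. They were flagged because the RBFOX2 sites outnumbered the enzyme-only sites by more than 3. That locus listed 26 RBFOX2 sites and 9 enzyme-only sites in UBE2F exons, with 411 and 330 reads over the whole locus. None was shared between the libraries, and the scaled log2 ratio was 1.22 (0.13 to 2.55). The direction of this ratio was fixed by the flagging rule. Of all loci with at least 20 unshared sites, 15.2% had an interval above 0. In exons of UBE2F-SCLY, loci that were not members listed 26 RBFOX2 and 15 enzyme-only sites. Which of the 2 genes the reads came from was not tested.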

How the results depend on the processing

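No paired analysis was possible because neither group held more than 1 library. Of 138 values computed again, 112 stayed within the interval, or within 1.5 times the count, of the value reported. A change of sign counted as a reversal only for the ratio of all E2 sites and for members past 2-fold. UBE2D2 changed sign within its interval, from −0.09 to 0.08 when scaled by its reads. UBE2D3 changed sign and counted as moved, from −0.26 to 1.05 at the common minimum. Among the 74 values for results of the whole family, 49 did so, 23 moved and 2 reversed. Among the 64 for ratios of single members, 63 did so. UBE2A was among these, although its interval took in 0 at the common minimum and with shared sites kept. With at least 2 converted reads, 163 and 109 sites were left in RBFOX2 and enzyme-only. Scaled by the sites so supported over all loci, the log2 ratio of all E2 sites reversed to −0.28 (−0.64 to 0.08). Of those E2 sites, 102 and 97 belonged to the 9 members with 500 or more reads, which alone gave −0.19, and 0.34 with the common read minimum. These 2 settings, and the common minimum for editsC and the omissions of UBE2B, UBE2J2 and the members listed in 1 library, were chosen after seeing the data. The minimum of 2 converted reads also moved the RBFOX2 shares to 64.4% in the 3'UTR, 92.6% after A or U and 50% synonymous among coding sites (36.1 to 63.9). The count of members over 2-fold lower was 2 with at least 10 sites and 0 with the common minimum. UGCAUG shares were 1.92% and 0% within 20 nt (0 of 290, with an interval up to 1.26%), and 14.4% and 6.90% within 200 nt. With GCAUG they were 10.7% and 6.90%. With the 3'UTR counted first its shares were 74.1% and 63.4%. In genes with at most 500 reads, 14.9% and 5.91% of sites had 2 or more reads. Isoforms above and below the editsC line were 51 and 1 at 2 SD, 7 and 0 with 1 isoform per gene, and 0 below with the common minimum. Depth limits the 9 deepest members, whose sites need 2 to 5 converted reads.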
